A study of Mus musculus with 2 samples.

Results

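Ctnna2, Pfn2, Rhoa, Crk and Gna12 encode proteins that act on actin and on cell adhesion. Their probes make up 5 of the 446 mRNA probes that are named in the copy of the study's supplementary list used here, and the arrays carry 60930 probes in all. The 5 genes were chosen from that list, which holds mRNAs that differed at least 2-fold between the same control and surgery arrays that are described here. A ratio of about 2-fold or more is therefore how each gene came to be chosen, and the ratios below are a description, with no test. Each gene was matched by its symbol and has 1 probe in that list, printed in 1 spot. Any other probe of these genes on the arrays is not named there and was not seen.

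The arrays measured RNA from the hippocampus of male mice aged 16-18 months, of strain C57 in the sample labels and C57BL/6 in the study's methods. According to the methods, the RNA of 3 mice was pooled in each group and the assay was repeated. The labels do not say which pool is on the 1 array per group analysed here. The control mice had received no specific treatment, and the surgery mice had undergone unilateral nephrectomy, the removal of 1 kidney, under anaesthesia, with tissue taken on day 3. With 1 array per group, the surgery, the anaesthesia, the pool and the array cannot be told apart, and no spread between mice can be given.

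Actin filaments give dendrites, spines and growth cones their shape. Filament growth is fed by profilins and steered by small GTPases such as RhoA, which are switched on by receptors through G proteins and exchange factors. Alpha-catenins tie the filaments to cadherins at cell contacts, and Crk adaptors link phosphorylated adhesion proteins to the same machinery. In neurons these proteins are known for their part in axon growth and in the stability of synapses and dendritic spines.

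Ctnna2, Pfn2, Crk and Gna12 had a lower signal after surgery, and Rhoa had a higher one. The log2 ratio of surgery over control, after quantile normalization, was -1.56 for Ctnna2, -1.19 for Crk, -1.01 for Gna12, -0.997 for Pfn2 and 1.06 for Rhoa. At the 2-fold line, 3 of the 5 were lower (Ctnna2, Crk and Gna12) and 1 was higher (Rhoa), while Pfn2 was just short of it. As a background, 44044 probes were detected, meaning well above background in both pools. Of these, 1.95% were lower by 2-fold or more and 1.47% were higher by 2-fold or more. These shares are given as background only, because the same ratio chose the genes.

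The probes are 60 bases long. They are shown because each of the 5 values rests on the single stretch of transcript that its probe reads. The sequences and positions were taken from the study's supplementary list and are written 5′ to 3′ as listed. Positions are those of GRCm38, and were not checked against a genome sequence. The probes of Ctnna2 and Crk are printed whole. Only 30 bases or fewer are printed for the other probes, and the capitals in the Pfn2 probe mark its first ATG, where the profilin 2 reading frame begins.
Ctnna2: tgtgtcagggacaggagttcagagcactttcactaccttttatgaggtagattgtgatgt
Pfn2, bases 32 to 60: ATGgccggttggcagagctacgtggataa
Rhoa, bases 1 to 30: gtctcttctctccagctgactaaacatttt
Crk: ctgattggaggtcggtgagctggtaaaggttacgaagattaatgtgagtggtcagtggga
Gna12, bases 1 to 30: tctacagaaactcttccttgttgacacagt

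The probes read different ends of their transcripts. The Pfn2 probe lies at chr3:57847467-57847525 on the minus strand, 232 bases in the genome from the 5′ end of NM_019410. The Rhoa probe is listed at chr9:108337854-108337939 on the plus strand, up to the last base of NM_016802, and the Gna12 probe at chr5:140760219-140761118 on the minus strand, 275 bases from the 3′ end of NM_010302. The listed stretches for Ctnna2 (chr6:76902381-76915733, minus strand, NM_001109764) and Crk (chr11:75692567-75703365, plus strand, NM_001277219) span 13353 and 10799 bases, which is far longer than a probe. Those for Gna12 and Rhoa, at 900 and 86 bases, are also longer than a probe. The Ctnna2 probe is also listed for NM_009819, another transcript of the same gene. Among the 10 pairs of probes, 0 share a run of 12 bases in the sequences as listed. The transcripts outside the probes were not compared. The share of G and C ranged from 35.0% in the Rhoa probe to 63.3% in the Pfn2 probe. Probes of different composition bind with different strength, and signals were therefore compared only between arrays and never between genes.

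**Figure D1:**
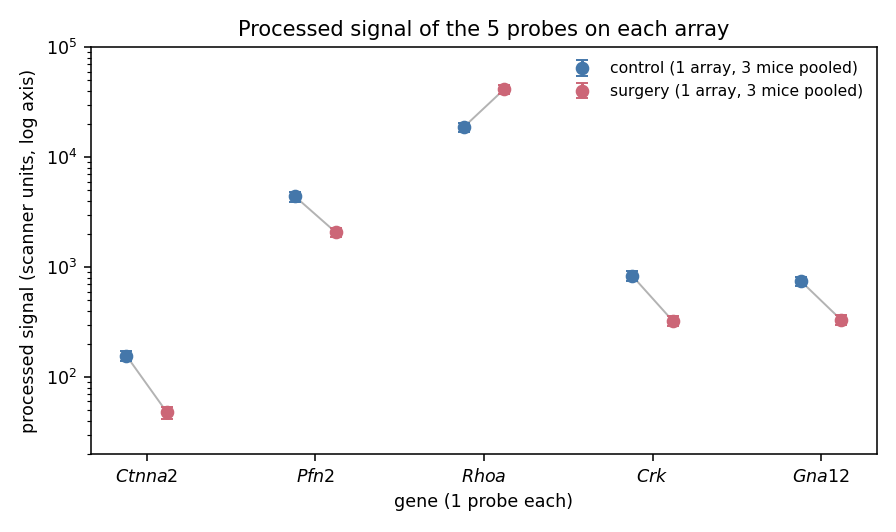
Processed signal in scanner units (log axis) of the probe of each gene on the control array (blue) and the surgery array (red), with bars for the spot error given by the scanner software. The Ctnna2, Pfn2, Crk and Gna12 points are lower on the surgery array and the Rhoa point is higher, and heights of different genes are not comparable.

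Ctnna2 encodes alpha-N-catenin, the neuronal alpha-catenin, which links cadherin and beta-catenin complexes to actin and is known for holding synaptic contacts and dendritic spines stable. The gene spans chr6:76881637-77979815 on the minus strand. Its processed signal was 156 in the control pool, with a spot error of 16.0, and 47.7 in the surgery pool, with a spot error of 6.24. The spot error is the uncertainty that the scanner software gives for a single spot, and it does not cover the difference between mice. The surgery value was 2.96-fold lower (log2 ratio -1.56, combined spot error 0.24). This was the lowest ratio of the 5, and 0.232% of the detected probes had a lower one.

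The Ctnna2 spot was the nearest of the 5 to its local background. Its median pixel was 199 for control and 93 for surgery, over a local background of 22 in each case. That is 9.05 times the background for control and 4.23 times for surgery. Ratios of median pixels were also taken after quantile normalization, and for Ctnna2 this ratio was smaller than that of the processed signals, at -1.06 on the log2 scale. With the background modelled by normexp, a method that keeps dim signals from falling to 0, it was -0.94 and thus under 2-fold. Among the 7076 detected probes whose mean log2 signal was within 0.5 of that of Ctnna2, 2.61% reached 2-fold in the lower direction.

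Pfn2 encodes profilin 2, a profilin enriched in the brain, which delivers actin monomers to growing filaments. The gene lies at chr3:57841895-57847757 on the minus strand. Control gave a processed signal of 4397 (spot error 440) and surgery one of 2084 (spot error 208). The surgery signal was 1.996-fold lower after normalization (log2 ratio -0.997, error 0.20). Pfn2 was thus the gene just outside the 2-fold line, and Gna12, at 2.01-fold lower, was the one just inside it. The distance of either from the line was under 0.01 on the log2 scale, far within its spot error.

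The Pfn2 spot stood well clear of background, at 254 times the local background for control and 126 times for surgery. Its median pixel was 4566 for control and 2145 for surgery, with a normalized log2 ratio of -1.01, close to that of the processed signals. Among 2293 detected probes of similar mean signal, 0.829% reached 2-fold in that direction. The scanner software marked the local background of this spot as a population outlier on the control array, while the spot itself carried no mark on either array.

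Rhoa encodes the small GTPase RhoA, which drives stress fibres and contraction through the kinases it activates and is known for collapsing growth cones and pruning spines. The gene lies at chr9:108306160-108337943 on the plus strand. Control gave a processed signal of 18785 (spot error 1879), and surgery one of 41539 (spot error 4154). Rhoa was 2.09-fold higher in the surgery pool (log2 ratio 1.06, error 0.20), and 1.26% of the detected probes had a higher ratio. Neither spot was saturated.

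The Rhoa spot stood far above its local background. Its median pixel was 18721 for control and 43548 for surgery, which were 851 and 2074 times the local background. The log2 ratio of the median pixels was 1.13. Among the 1028 detected probes with a mean log2 signal within 0.5 of that of Rhoa, 2 reached 2-fold in the higher direction, Rhoa included, which is 0.195%. The spot lies in column 147 of 164, close to the edge formed by the last 14 columns, where 8.4% of detected probes were 2-fold higher or more. In the other columns this share was 0.797%. When the running median of nearby spots was subtracted, the log2 ratio of Rhoa was 0.92 and thus under 2-fold.

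Crk encodes an adaptor with SH2 and SH3 domains that binds tyrosine-phosphorylated proteins such as paxillin, p130Cas and, in the reelin pathway, Dab1, and passes the signal to exchange factors for Rap and Rac. The gene lies at chr11:75679194-75708428 on the plus strand. The processed signal was 834 for control (spot error 83.4) and 325 for surgery (spot error 32.7). The surgery signal was 2.28-fold lower (log2 ratio -1.19, error 0.20), and 0.892% of the detected probes had a lower ratio. The median pixel of the spot was 932 for control and 400 for surgery, each over a local background of 20, and the log2 ratio of the median pixels was -1.09. Among 4635 detected probes of similar signal, 1.7% reached 2-fold in the lower direction. Crk was at least 2-fold lower under each of the 9 other ways of processing that were tried.

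Gna12 encodes the alpha subunit of the heterotrimeric G protein G12, which activates RhoA through RhoGEF exchange factors. The gene lies at chr5:140759944-140830431 on the minus strand. For control the processed signal was 746 (spot error 74.7), and for surgery it was 330 (spot error 33.2). The surgery signal was 2.01-fold lower (log2 ratio -1.01, error 0.20), and 1.88% of the detected probes had a lower ratio. The median pixel was 788 for control and 390 for surgery, with a log2 ratio of -0.88, under 2-fold. The share of 2-fold lower probes among 4664 of similar signal was 1.69%. Gna12 and Rhoa, which act in a single pathway, had ratios of opposite sign on these arrays. This follows from how they were chosen, since Gna12 was listed as lower and Rhoa as higher.

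**Figure D2:**
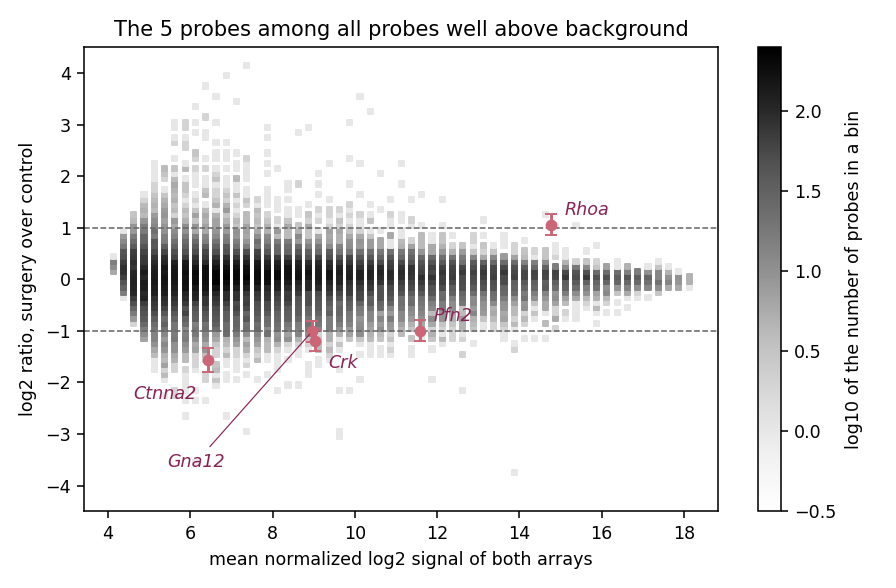
Log2 ratio of surgery over control against the mean normalized log2 signal of both arrays. Grey squares are bins of all 44044 probes well above background (darker where a bin holds more probes), red points are the 5 genes with their spot errors, and dashed lines mark 2-fold. Ctnna2 lies at low signal where ratios spread widely, and Rhoa at high signal where few probes reach 2-fold.

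The 4 lower genes could not be ordered by their ratios. They differed from each other by 0.01 to 0.57 on the log2 scale, which was at most 1.80 times the combined spot error of a pair. The gap between Rhoa and each of them, 2.06 to 2.63, follows from how the genes were chosen, since 1 was listed as higher and 4 as lower by 2-fold or more. Of the 5 genes, 4 were within 1 spot error of the 2-fold line, the exception being Ctnna2. Spots of 13 bright probes that are printed repeatedly had a median SD of the log2 ratio of 0.05 and a highest SD of 0.10. For these bright probes the spread between spots was smaller than the spot errors of the 5 genes, 0.20 to 0.24. Dim spots such as that of Ctnna2 are not covered by this. Neither measure says how far 2 other pools of mice would have differed.

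Of the 5 spots, 0 were marked as non-uniform or as outliers, 0 were saturated and 0 lie in the last 14 columns. The spots near each probe, within 5 rows and 2 columns, gave a local comparison. The median log2 ratio of these neighbours was 0.05 around Ctnna2 (40 spots), 0.10 around Pfn2 (26 spots), 0.14 around Rhoa (39 spots), -0.09 around Crk (44 spots) and 0.06 around Gna12 (36 spots). Around Ctnna2, Pfn2 and Rhoa, 0 neighbours reached the ratio of the gene itself. Around Crk 3 neighbours were as low or lower, and around Gna12 1 was. The genes were chosen for ratios of about 2-fold. Of all detected probes, 1.95% were lower and 1.47% were higher by 2-fold or more, so few such neighbours would be found at any place.

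**Figure D3:**
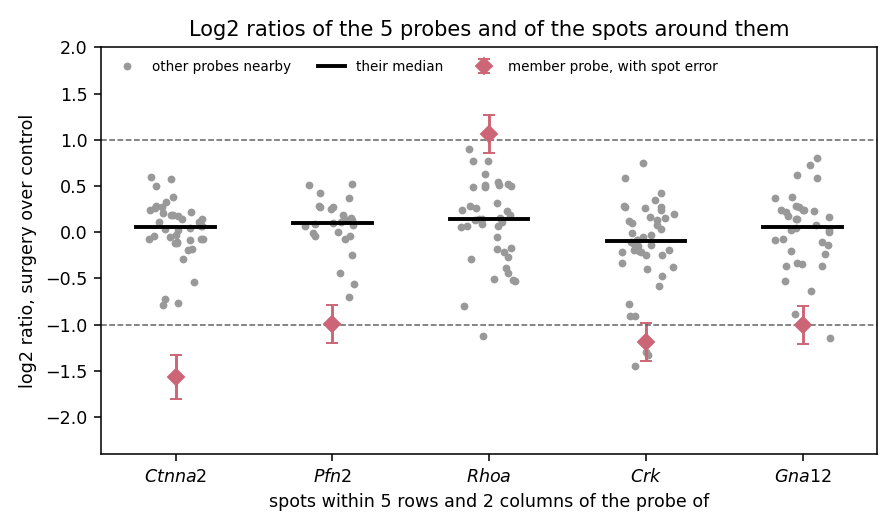
Log2 ratio of the probe of each gene (red diamonds, bars for the spot error) and of the other detected probes within 5 rows and 2 columns of it (grey points, with their median as a black line). Dashed lines mark 2-fold. The neighbours centre near 0 at all 5 places, all Rhoa neighbours lie below Rhoa, and among the 4 lower genes some neighbours lie at or below the gene around Crk and Gna12.

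The values were also computed in 9 other ways. Each gene kept the sign of its ratio in all 9, and 37 of the 45 values were at least 2-fold. The log2 ratio of Ctnna2 ranged from -1.71 to -0.94, that of Crk from -1.36 to -1.05, that of Gna12 from -1.18 to -0.85, that of Pfn2 from -1.10 to -0.91 and that of Rhoa from 0.92 to 1.31. Gna12 was at least 2-fold lower in 5 of the 9, Pfn2 in 7 and Ctnna2 in 8, and Rhoa was at least 2-fold higher in 8. In the authors' own normalized values the differences in log2 were -1.41 for Ctnna2, -1.01 for Pfn2, 1.26 for Rhoa, -1.21 for Crk and -1.02 for Gna12.

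**Figure D4:**
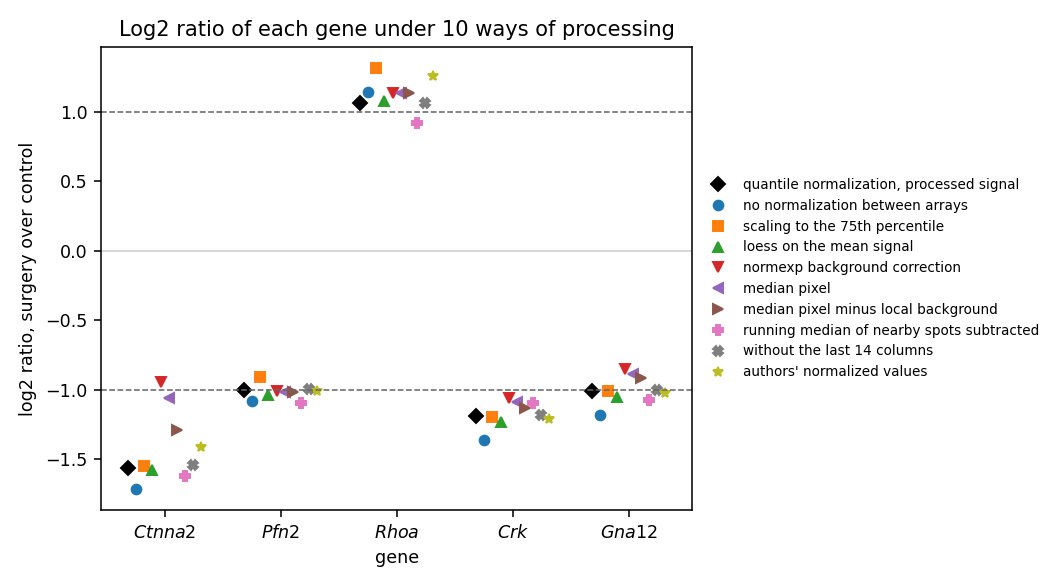
Log2 ratio of surgery over control for each gene with quantile normalization of the processed signal (black diamonds) and in 9 other ways of processing (coloured symbols, as listed). Dashed lines mark 2-fold. Rhoa stays above 0 and the other genes below 0 throughout, while symbols of Gna12, Pfn2, Ctnna2 and Rhoa fall on both sides of the 2-fold line.

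Lists of genes with related roles were written, 5 in all, with 225 genes, of which 220 are not among the 5 described. Gene names come only from the study's list of changed mRNAs, so that 23 of the 220 could be found and the rest were not analysed here. Since all 23 had been listed as changed, their number is not evidence about a pathway. The copy of the list names 248 mRNA probes listed as higher and 198 listed as lower. The paper itself reports more lower than higher mRNAs. The rows missing from the copy are therefore mostly those of lower genes, and counts of higher against lower genes lean towards higher. Of the 23, 12 were at least 2-fold higher, 6 were at least 2-fold lower, 1 was under 2-fold and 4 were not measured on both arrays. For 14 of the 23 the spot is in the last 14 columns. With the ratio of median pixels, from which no local background was subtracted, 4 of the 12 and 2 of the 6 were still at least 2-fold. With the local background subtracted, 7 genes of the lists were higher and 4 were lower.

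The list of cadherin and catenin adhesion genes is broad and is not a list of proteins that bind the Ctnna2 product. Beside Ctnna2, 5 of its 7 named genes were at least 2-fold higher, 0 were lower and 2 had marked spots. Cdh1, which encodes E-cadherin, an epithelial cadherin, went from a signal of 352 in control to 2706 in surgery (log2 ratio 3.07, error 0.20). The ratio of Cdh1 was thus opposite in sign to that of Ctnna2. The other genes that were higher, Arvcf, Dag1, Fat4 and Pcdha3, had log2 ratios of 1.12 to 1.95 and lie in the last 14 columns. By the median pixels 2 of the 5, Cdh1 and Fat4, were at least 2-fold higher, and with the running median subtracted the log2 ratio of Dag1 was -0.24. Of the marked spots, also in the last columns, Celsr1, a cadherin of planar cell polarity, read 2576 against 312 (log2 ratio -2.91, and -2.68 by the median pixels).

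Beside Pfn2, the actin assembly list held 6 named genes, with 2 lower, 2 higher, 1 under 2-fold and 1 measured on the surgery array alone. Signals are given for control against surgery. Capza2, a subunit of the capping protein that closes filament ends, had a signal of 18871 against 10398 (log2 ratio -0.91). Evl, an Ena/VASP protein that binds profilin, had a signal of 160 against 70.3 (log2 ratio -1.04). Fscn1, the filament bundler fascin, had a signal of 91.7 against 29.9 (log2 ratio -1.49, and -0.71 by the median pixels). By the median pixels the log2 ratio of Evl was -0.70. Of the higher genes, Fnbp1, a membrane-bending protein that binds actin regulators, had a signal of 120 against 451 (log2 ratio 2.07, and 1.70 by the median pixels), and Avil, the actin-binding protein advillin, one of 171 against 319 (log2 ratio 1.07, and 0.90 by the median pixels). By the median pixels Fnbp1 was the only one of these 6 genes to reach 2-fold. The spots of Capza2 and Fnbp1 lie in the last 14 columns.

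Among regulators and effectors of RhoA and related small GTPases, 3 of 4 named genes were lower, unlike Rhoa itself. Arhgap39, a GTPase-activating protein for small GTPases, had a signal of 424 against 129 (log2 ratio -1.56). Dock8, an exchange factor for Cdc42, had a signal of 121 against 28.8 (log2 ratio -1.95). Rap1gds1, which encodes the chaperone SmgGDS of small GTPases that include RhoA, had a signal of 296 against 117 (log2 ratio -1.17). Rhpn1, the RhoA-binding protein rhophilin 1, was higher, at 109 against 297. Arhgap39 and Rhpn1 lie in the last 14 columns. By the median pixels Rap1gds1 was under 2-fold, at -0.92.

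Among partners of Crk, Rapgef1, an exchange factor for Rap that Crk binds, had a signal of 26.8 against 81.6 (log2 ratio 1.72), and a log2 ratio of 0.62 by the median pixels. Its spot lies in the last 14 columns. Among G proteins and receptors that couple to them, Gnb4, a beta subunit, had a signal of 247 against 90.4 (log2 ratio -1.29, and -0.96 by the median pixels), with the same sign as Gna12. The receptor genes S1pr4, Agtr1b and Ptgfr were higher, with log2 ratios of 1.32 to 1.69, all under 2-fold by the median pixels, and S1pr4 lies in the last 14 columns.

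**Figure D5:**
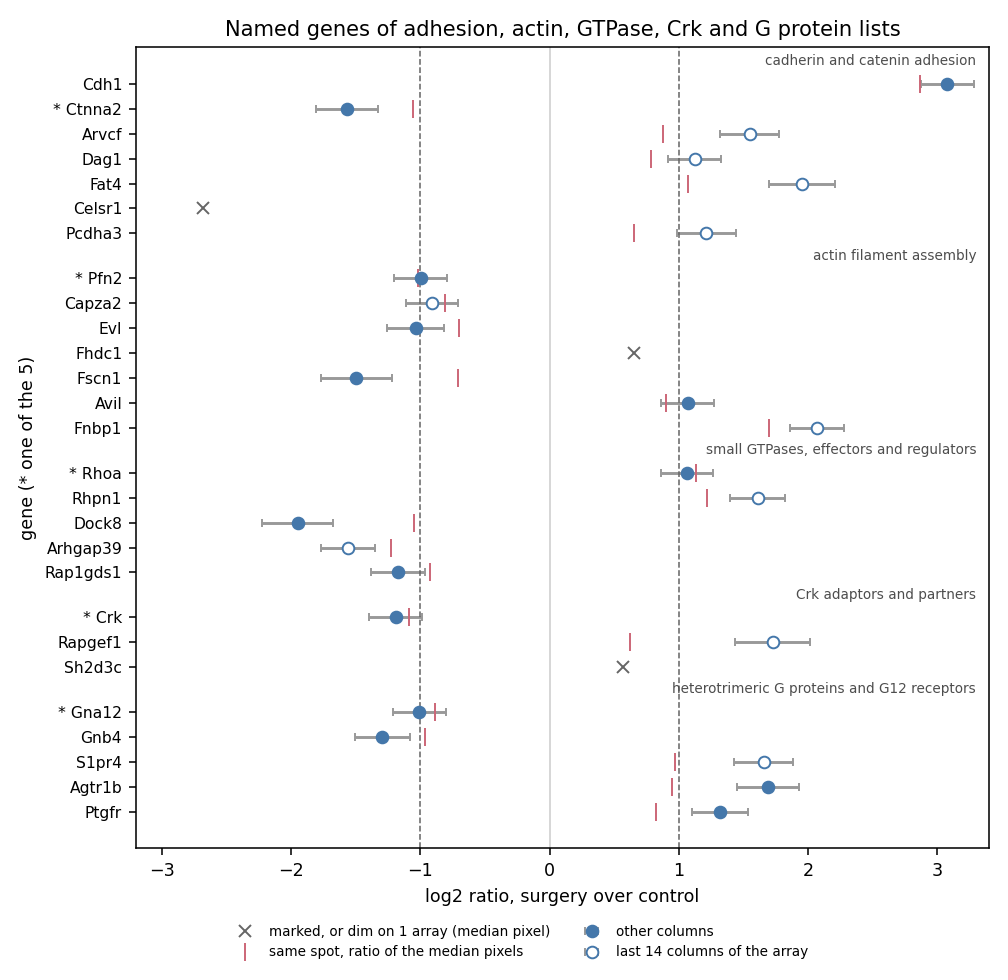
Log2 ratio of surgery over control of the 5 genes (starred) and of the other named genes of the 5 lists whose values are reported here, with bars for the spot error. Open circles are spots in the last 14 columns, crosses are spots that were marked or dim on 1 array (shown by their median pixels), red ticks are median pixel ratios, and dashed lines mark 2-fold. The ticks of the other named genes all lie nearer to 0 than their circles.

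The named probes closest to each gene in ratio were also listed, from the 446, over the 2 arrays. They were Arhgap39 and Tmem168 for Ctnna2 (-1.56 and -1.55), Rnpc3 and Inpp5b for Pfn2 (-0.997 and -0.998), Luc7l and Avp for Rhoa (both 1.06), Eif4g2 and Vstm2a for Crk (both -1.19), and Appl2 and 2610507B11Rik for Gna12 (both -1.01). With 2 arrays, any probes of equal ratio have the same pattern.

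The arrays hold RNA of hippocampal tissue, and they do not show in which cells the 5 genes were read. A lower signal can come from fewer cells of a type or from less RNA per cell, which cannot be told apart here. Of 11 neuronal marker genes, 3 are named in the list. Nsg2, a neuronal membrane protein, had a signal of 6736 against 2884 (log2 ratio -1.19). Camk2a, the kinase of excitatory synapses, had a signal of 48.5 against 111 (log2 ratio 1.35), and a log2 ratio of 0.70 by the median pixels. Tbr1 was detected in the control pool alone, at 28.9 against 4.01 (spot error of the log2 ratio 1.47). Its lower bound was 1.48-fold lower after surgery, a bound that leaves the spot error out. Nsg2 was thus lower and Camk2a was higher, while the lower reading of Tbr1 rests on a dim spot. The control signal of Camk2a was below the median processed signal of the control array, 98.8.

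Markers of other cells that the dissected tissue could hold also differed between the arrays. Of 10 markers of the meninges, 9 were higher by at least 2-fold (log2 ratios 1.01 to 3.29), and the spot of the tenth, Tfap2a, was marked. The oligodendrocyte gene Tspan2 had a log2 ratio of -0.99, the choroid plexus gene Clic6 one of -1.38 and the endothelial gene Thbd one of 1.50. All of these genes are named only because the study listed them as changed on these arrays. The marker lists were chosen with earlier results of these data known. All 10 meninges markers are in the study's list, against 3 of 11 for neurons, so the 9 are a description only. Of all detected probes, 1.47% were higher by 2-fold or more. Of 6 astrocyte and 5 microglia markers, 0 are named in the list. Their part in the ratios of the 5 genes was not tested.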

How the data were processed

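One-colour Cy3 arrays of 1 control pool and 1 surgery pool were analysed. Per the labels, mRNA was enriched and labelled with random primers along whole transcripts. Per the file headers, the deposited intensity (processed signal) came from Agilent Feature Extraction 11.0.1.1, which corrects each array for its own background and spatial trend. The authors deposited a second table on the log2 scale, quantile normalized in GeneSpring, with column medians of 4.78 and 4.78. It followed the log2 processed signal with a slope of 1.01 (r = 0.997 across probes) and a constant offset whose origin is not given in the sources used here.

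The log2 processed signals of the 61500 spots that are not controls were quantile normalized. Spots of 1 probe were averaged, spots marked as non-uniform or as population outliers were left out, and a probe was kept if it was well above background on each array. A probe dim on 1 array was given a lower bound of its fold. No test was run with 1 array per group. Between the arrays, 76.4% and 73.8% of spots were well above background, and the median log2 ratio was 0.04. The alternatives were no normalization, scaling to the 75th percentile, loess (span 0.3), normexp (offset 50, limma 3.58.1 in R 4.3.3, on the median pixels in place of the mean pixels that had been planned), the median pixels with and without local background, a running median, leaving out the last 14 columns, and the authors' values. For counts, the filter on dim probes and the marks were also varied. Scripts used Python 3.11.15, numpy 2.4.6, pandas 2.3.3 and matplotlib 3.10.9, and were tested on simulated data.

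Gene names, sequences and probe positions come from the study's supplementary list, and gene positions from RefSeq on GRCm38.p6. The mRNA part of that list is shortened, mostly among the lower genes. The named genes are the 5 genes, the genes of the role and marker lists found in that list, and the 2 probes closest in ratio to each of the 5. The 5 genes and the lists were chosen with earlier results of these data known. The values of some genes of the role and marker lists are not reported here.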

Additional observations from a re-analysis of the deposited data

How the results depend on the processing

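No paired analysis was possible because each group has 1 array, and no array could be left out for the same reason. Of 45 values of the 5 genes, 41 moved by less than the spot error and 0 changed sign. The log2 ratio of Ctnna2 was -0.94 with normexp, -1.06 with the median pixels and -1.29 with the median pixels minus local background, and that of Rhoa was 1.31 with scaling to the 75th percentile. The 3 genes at least 2-fold lower became 2 to 4, and the 1 at least 2-fold higher became 0 with the running median. Of all probes, 858 were at least 2-fold lower. This count was 1483 without normalization (where the median of all probes shifted by -0.11), 190 with normexp, 243 with the median pixels and 356 with local background subtracted from them. The main count is over 44044 probes. It was 1913 over 52433 probes when spots needed only to be positive and significant, and 285 over 22022 in the brighter part of the probes. As a share, the brighter part had 1.29% lower and 0.590% higher, against 1.95% and 1.47% of all detected probes. The 647 probes at least 2-fold higher became 174, 210 and 295 with normexp and the median pixels without and with the subtraction. They became 348 without the last 14 columns (over 40152 probes), 1585 with the looser filter and 130 in the brighter part. Of the role genes, the 6 lower became 1 with normexp, 2 with the median pixels and 1 in the brighter part. The 12 higher became 3 with normexp, 4 and 7 with the median pixels without and with the subtraction, 4 without the last columns and 4 in the brighter part. Leaving out the last columns and keeping the brighter part both remove probes, so those counts are over fewer probes and genes. The median pixels without the subtraction still hold the local background, and normexp adds an offset of 50. By arithmetic, both bring the ratios of dim spots nearer to 0. How far this accounts for the other changes was not tested. Signal over background limits Ctnna2 most, since it was 4.23 times the local background on the surgery array.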
